A study of Mus musculus with 12 samples.

Results

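The transcripts of 10 plasma membrane carriers of amino acids were followed in 12 RNA-seq libraries of mouse embryonic fibroblasts (MEF cells). The genes were the heavy chain Slc3a2 and its partner Slc7a5, the cationic amino acid carriers Slc7a1 and Slc7a3, the neutral amino acid exchangers Slc1a4 and Slc1a5, the glycine transporter Slc6a9, and the sodium-coupled neutral carriers Slc38a1, Slc38a2 and Slc38a4. They were chosen by gene name with earlier results of these data known, leaving out the cystine carrier. All 10 were listed among the 43280 entries of one expression table and the 23930 entries of the other. The cells were isolated from C57BL/6 embryos at embryonic day 13.5, immortalized by serial passage without a transgene, and grown in DMEM with 10% serum. Control cells carried the empty retroviral vector pMXs-puro, and 2MUT cells stably expressed FLAG-tagged human IDH2 with a cancer-associated mutation from the same vector after selection with puromycin. In a separate experiment, 2-HG(+) cells received 300 μM of membrane-permeant 2-hydroxyglutarate (2-HG) for 24 h. The 2-HG(-) cells were labelled as receiving the solvent DMSO for 24 h, whereas the text of the study calls them non-treated. Each group had 3 libraries, nothing states whether the retroviral lines were clones, and no library of cells with wild-type IDH2 was analysed here. The labels do not say that replicates were separate cultures, so the p-values measure the spread between these libraries, which may be technical.

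Amino acid carriers set which amino acids a cell can take up or exchange. Slc7a5 needs the heavy chain Slc3a2 to reach the membrane, and the pair exchanges intracellular glutamine for leucine and other large neutral amino acids, which feed the nutrient sensor mTORC1. Slc38a1 and Slc38a2 use the sodium gradient to concentrate glutamine and other small neutral amino acids, and Slc1a4 and Slc1a5 exchange alanine, serine, cysteine, threonine and, for Slc1a5, glutamine. Many of these genes are known targets of the amino acid response, in which the kinase Gcn2 (Eif2ak4) and the transcription factor Atf4 raise transcription through C/EBP-ATF response elements (CARE). Mutant IDH2 makes 2-HG from α-ketoglutarate, which itself is formed from glutamate.

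The question was how these transporter transcripts differed between 2MUT and Control, and between 2-HG(+) and 2-HG(-). Levels are RPM, the number of reads falling on a gene in every 1000000 counted, and each gene was read from a short amplified target, so changes and not levels are compared between genes. Depth was 6472439 to 7313602 reads in Control and 2MUT and 14959318 to 18363768 reads in the 2-HG experiment. In each comparison 8 members could be tested, and those with a limma p-value under 0.05 after Benjamini-Hochberg (BH) adjustment over all genes tested are called risen or fallen. Log2 fold changes are on log2(RPM + 1), so that changes of weakly expressed genes come out too small. Of the 10 fibroblast markers examined, 9 or 10 were at 1 RPM or more in each group, and their summed level was 11776 to 12851 RPM in Control, 8020 to 8651 in 2MUT, 20452 to 21982 in 2-HG(-) and 13937 to 15236 in 2-HG(+). None of 6 epithelial markers reached a mean of 1 RPM in any group, and Ptprc and Sox10, which define blood and neural crest cells, were also under 1 RPM. The 5 haematopoietic markers, of which 4 were listed for Control and 2MUT, summed to 7.16 to 15.1 RPM over the libraries, most of it Cd68, with group means of 6.62 to 12.4 RPM. The 5 neural markers summed to 10.6 to 23.1 RPM, most of it Map2 and Tubb3, while Snap25 and Gfap were under 1 RPM. Of the 5 endothelial markers only Pecam1 reached a mean of 1 RPM, at 1.05 in Control and 1.08 in 2MUT. Of the 5 skeletal muscle markers only Des did, with group means of 1.48 to 2.80 RPM. The part of these lists and of the lower fibroblast marker sums in the results below was not tested. In bulk libraries, fewer cells of a kind and less RNA per cell cannot be told apart.

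In 2MUT cells, 5 of the 8 tested transporters rose (Slc7a5, Slc1a4, Slc6a9, Slc38a1 and Slc38a2) and 1 fell (Slc1a5), although the Slc1a4 call was lost in most alternative settings. Over all 11065 genes tested, 16.5% rose and 17.3% fell. In 2-HG(+) cells, 6 of 8 rose (Slc3a2, Slc7a5, Slc7a1, Slc1a5, Slc6a9 and Slc38a1) and 1 fell (Slc38a2), against 16.1% and 16.7% of 10384 genes. The median log2 fold change of the tested members was 0.46 in 2MUT and 0.75 in 2-HG(+), beside 0.01 and -0.02 over all genes tested. By a limma contrast over the 12 libraries, 6 members changed differently in the 2 experiments. For Slc38a2 the change was more positive in 2MUT, and for Slc3a2, Slc7a5, Slc7a1, Slc1a5 and Slc6a9 it was more positive with 2-HG, against 19.9% and 19.5% of 9610 genes. The experiments differ in depth, library set and the cells' own history as well as in the treatment, and these cannot be told apart in that contrast.

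**Figure D1:**
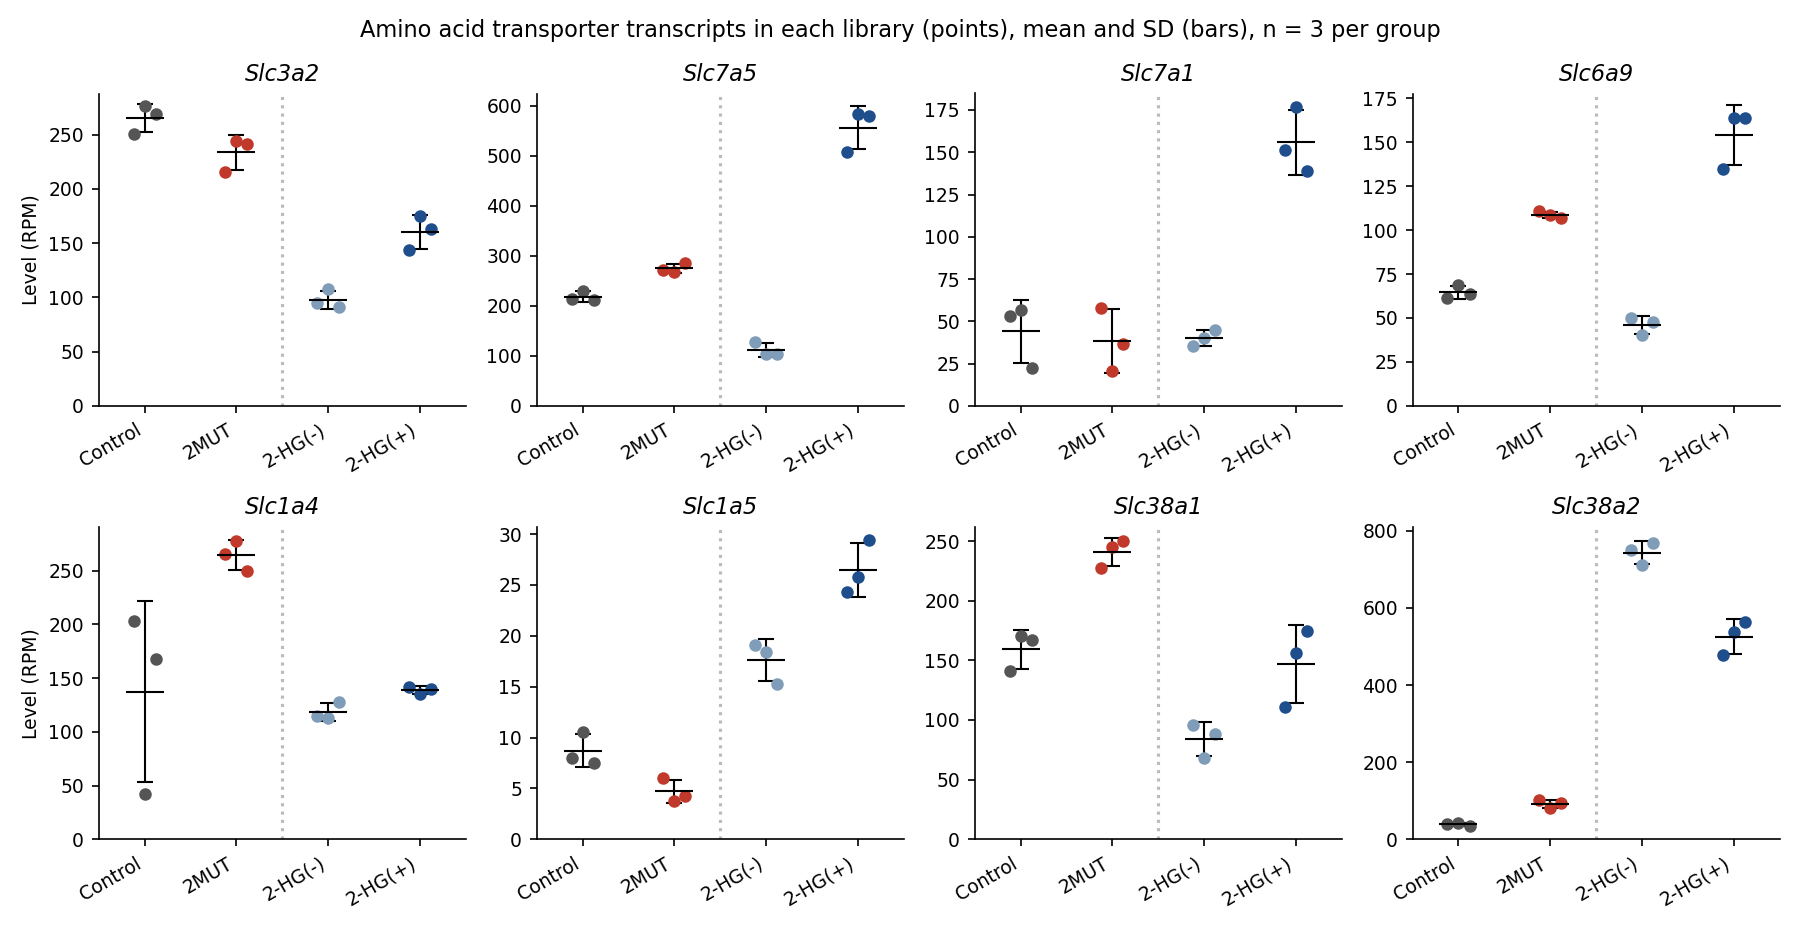
Level in RPM (vertical axes, linear, from 0) of the 8 tested transporters in each of the 12 libraries (points), with the mean and SD of 3 libraries per group (bars); the dotted line parts the 2 experiments. Slc7a5 stands at 507 to 583 RPM in 2-HG(+) and 103 to 128 RPM in 2-HG(-), and a single Control library of Slc1a4 lies at 42.0 RPM.

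**Figure D2:**
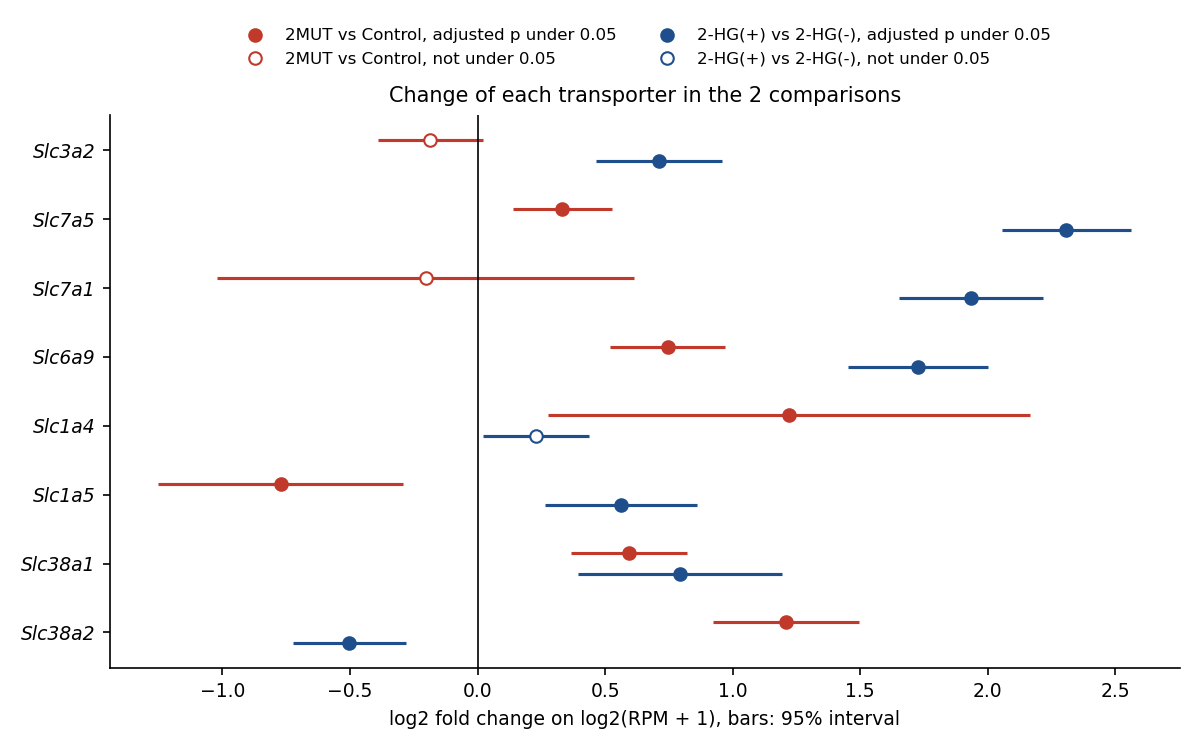
Log2 fold change of the 8 tested transporters (points) with its 95% interval from limma (bars), for 2MUT vs Control in red and 2-HG(+) vs 2-HG(-) in blue, filled where the adjusted p-value is under 0.05. Slc38a2 rises in one comparison (1.21) and falls in the other (-0.50), and Slc1a5 the reverse (-0.77 and 0.56).

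Promoter sequences are shown because the amino acid response acts at CARE elements close to the start of several carrier genes. Of the 10 members, 6 were matched in the RefSeq promoter table of GRCm38.p6, with 11 start sites. Each stretch runs from 100 bases before the start to 10 bases past it, 5′ to 3′ on the strand of the gene. Capitals mark the CARE letters TGATGNAA, or TTNCATCA when read on the other strand. The stretches lie at chr11:20332704-20332813 for Slc1a4, chr19:8713888-8713997 for Slc3a2, chr5:148399895-148400004 for the upstream start of Slc7a1, and chr15:96699719-96699828 for Slc38a2, all on the minus strand, and at chr4:117835158-117835267 on the plus strand for the first start of Slc6a9.
Slc1a4: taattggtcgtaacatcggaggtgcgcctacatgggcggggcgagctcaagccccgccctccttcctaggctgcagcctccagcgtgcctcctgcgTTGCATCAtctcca
Slc3a2: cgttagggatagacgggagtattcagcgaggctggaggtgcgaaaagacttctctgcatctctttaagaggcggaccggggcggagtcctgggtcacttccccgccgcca
Slc7a1: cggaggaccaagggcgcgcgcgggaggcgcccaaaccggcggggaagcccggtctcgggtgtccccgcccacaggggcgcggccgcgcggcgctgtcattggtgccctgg
Slc38a2: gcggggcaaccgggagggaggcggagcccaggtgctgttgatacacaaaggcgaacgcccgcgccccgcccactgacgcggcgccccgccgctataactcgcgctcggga
Slc6a9: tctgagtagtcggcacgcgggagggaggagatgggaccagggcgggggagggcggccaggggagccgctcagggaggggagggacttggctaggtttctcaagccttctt

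In the full windows, 250 bases before to 50 after each start and both strands, the CARE letters were found in Slc1a4 alone of the 6 members, as TTGCATCA from base -4 to base 4 around the start. They occur in 3.97% of 32851 promoters of the same table. The E-box CACGTG, bound by Myc among other factors, occurs in 7.15% of promoters and in none of the 11 member windows. A match is a description of letters and not of a bound site, and these windows do not reach introns or more distant sequence.

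Slc3a2, the heavy chain (4F2hc, CD98) shared by Slc7a5 and by the cystine carrier Slc7a11, lies on chromosome 19 from 8706882 to 8723369 on the minus strand (GRCm38, as are the gene coordinates that follow, from GENCODE M21). Its levels were 251, 276 and 269 RPM in Control and 216, 244 and 241 RPM in 2MUT. The 2MUT libraries lay below the Control libraries without overlap, but the difference did not pass the test (log2 fold change -0.18, 95% interval -0.39 to 0.02, limma, BH-adjusted p = 0.153). With 2-HG the levels went from 94.6, 107 and 91.0 RPM to 144, 175 and 163 RPM. Slc3a2 thus rose 1.64-fold in 2-HG(+) (log2 fold change 0.71 ± 0.11 SE, limma, BH-adjusted p = 0.00108). The 2 changes differed by -0.90 on the log2 scale, 2MUT minus 2-HG (limma, BH-adjusted p = 0.000264).

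Slc7a5 (LAT1), the leucine exchanger carried by Slc3a2, lies on chromosome 8 from 121881150 to 121907694 on the minus strand. Control libraries stood at 213, 230 and 211 RPM and 2MUT libraries at 271, 268 and 285 RPM. The groups were apart and the rise was small, 1.26-fold (log2 fold change 0.33 ± 0.09 SE, limma, BH-adjusted p = 0.0141), and without the third 2MUT library it was 0.31 with an adjusted p of 0.0616. In the 2-HG experiment the levels were 128, 104 and 103 RPM in 2-HG(-) and 507, 583 and 579 RPM in 2-HG(+). This was the largest rise among the members, 4.95-fold (log2 fold change 2.31 ± 0.11 SE, limma, BH-adjusted p = 1.63e-06). The change with 2-HG exceeded that in 2MUT, with a contrast of -1.98 (limma, BH-adjusted p = 2.39e-07).

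Because Slc3a2 is shared by several light chains, the log2 ratios of Slc7a5 and Slc7a11 to Slc3a2 were taken in every library. Slc7a5 to Slc3a2 was -0.23, -0.26 and -0.35 in Control and 0.33, 0.14 and 0.24 in 2MUT, and it was 0.43, -0.04 and 0.18 in 2-HG(-) and 1.81, 1.73 and 1.82 in 2-HG(+). The mean ratio was higher by 0.52 in 2MUT and by 1.60 in 2-HG(+), with no overlap of libraries in either experiment. Slc7a11, the cystine-glutamate exchanger and also a light chain of Slc3a2, was at 2.22, 2.28 and 0.957 RPM in Control, 2.63, 1.61 and 3.44 RPM in 2MUT, 25.6, 35.3 and 33.5 RPM in 2-HG(-) and 235, 254 and 201 RPM in 2-HG(+). The Control and 2MUT libraries overlapped, and Slc7a11 rose with 2-HG (log2 fold change 2.83, limma, BH-adjusted p = 1.65e-06). Its ratio to Slc3a2 was 0.53 higher in 2MUT with overlapping libraries (two-sided exact permutation test, p = 0.3), a difference that became 0.27 without the third Control library, and 2.12 higher in 2-HG(+) without overlap. The other ratios, here and for the pairs below, all gave p = 0.1 in this exact permutation test, the smallest value that 3 against 3 libraries allow, and 0.114 after Benjamini-Hochberg adjustment over the 8 tests.

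**Figure D3:**
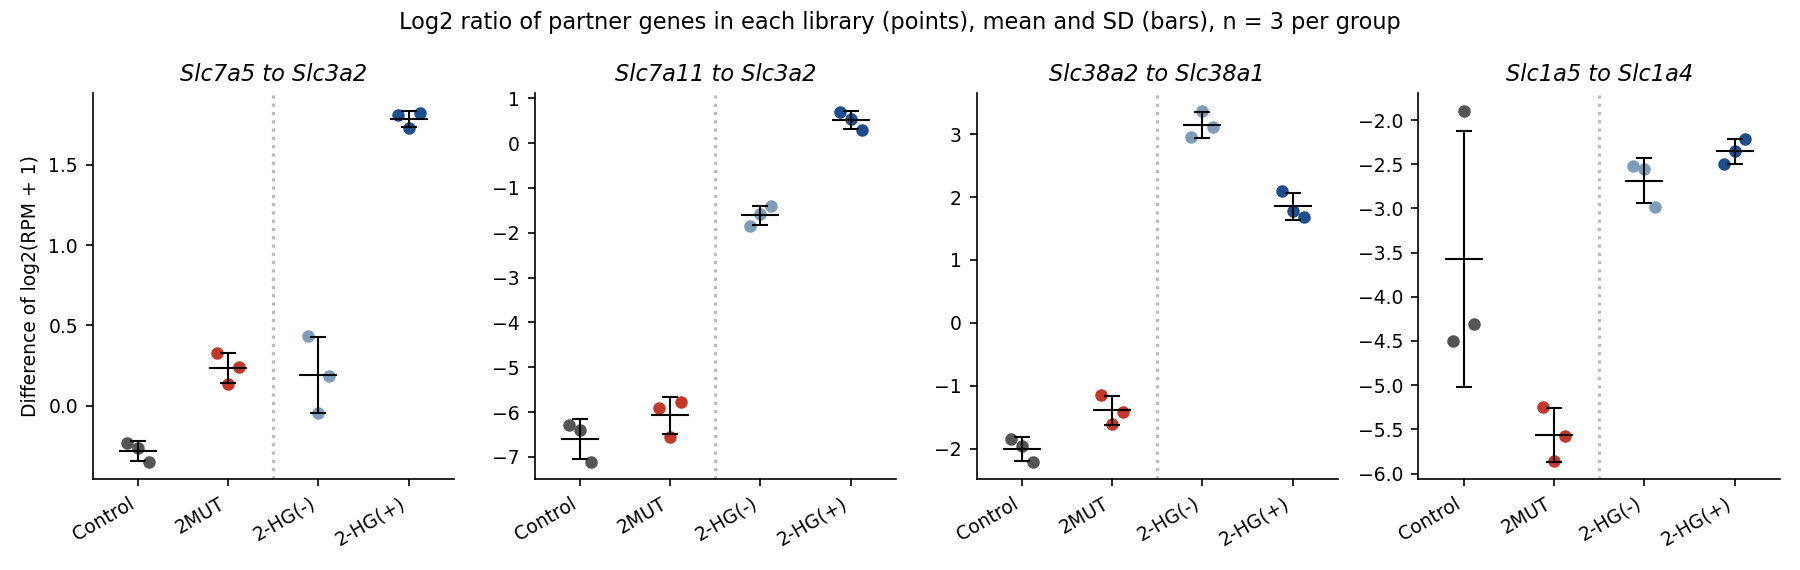
Log2 ratio of 4 pairs of carriers, taken as the difference of log2(RPM + 1), in each library (points) with the mean and SD of 3 libraries (bars); vertical axes differ between panels and the dotted line parts the experiments. The ratio of Slc38a2 to Slc38a1 is higher in 2MUT than in Control and lower in 2-HG(+) than in 2-HG(-), and that of Slc7a5 to Slc3a2 is higher in both.

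Slc7a1 (CAT1), which takes up arginine, lysine and ornithine, lies on chromosome 5 from 148327410 to 148399904 on the minus strand. Its levels were 52.8, 56.8 and 22.4 RPM in Control and 58.1, 20.5 and 36.6 RPM in 2MUT. These groups overlapped and were wide: the log2 range of the 3 libraries exceeded that of 98.6% of 7819 genes in Control and of 99.6% of 7800 genes in 2MUT. In the third Control library, the lowest for Slc7a1, 116 of 7857 genes of at least 10 RPM lay more than 2-fold below the other two and 5 lay more than 2-fold above. The log2 fold change was -0.20 (95% interval -1.02 to 0.61, limma, BH-adjusted p = 0.707). It was -0.62 without the third Control library, 0.03 without the second Control library and 0.17 without the second 2MUT library, and it passed the test in none of these fits. In the 2-HG experiment the libraries were close together, at 35.4, 39.9 and 44.9 RPM in 2-HG(-) and 152, 177 and 139 RPM in 2-HG(+). Slc7a1 rose 3.82-fold with 2-HG (log2 fold change 1.93 ± 0.13 SE, limma, BH-adjusted p = 6.54e-06), and the contrast between experiments was -2.14 (limma, BH-adjusted p = 0.00322).

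Slc7a3 (CAT3), a related cationic amino acid carrier on chromosome X from 101079210 to 101086020, was close to undetected. It had 3 reads in all of Control, 6 in 2MUT, 1 in 2-HG(-) and 8 in 2-HG(+), of which 7 were in the second library. A level of 3 reads per library corresponded to 0.41 to 0.464 RPM in Control and 2MUT and to 0.163 to 0.201 RPM in the 2-HG experiment. These values cover counting error only and did not enter a test.

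Slc6a9 (GlyT1), the sodium- and chloride-dependent glycine transporter, lies on chromosome 4 from 117834506 to 117875198 on the plus strand. It stood at 61.1, 68.8 and 63.6 RPM in Control and 111, 108 and 107 RPM in 2MUT. The 2MUT libraries were within a few RPM of each other and all above Control, a 1.68-fold rise (log2 fold change 0.75 ± 0.10 SE, limma, BH-adjusted p = 0.000285). With 2-HG the levels went from 50.04, 40.1 and 47.7 RPM to 135, 164 and 164 RPM. Slc6a9 rose 3.31-fold there (log2 fold change 1.73 ± 0.12 SE, limma, BH-adjusted p = 1.13e-05), by more than in 2MUT (contrast -0.98, limma, BH-adjusted p = 0.000259). Slc6a9 and Slc38a1 were called in the same direction in both experiments with every library left out in turn.

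Slc1a4 (ASCT1), a neutral amino acid exchanger that carries serine and alanine, lies on chromosome 11 from 20302180 to 20332713 on the minus strand. Control libraries were at 203, 42.0 and 168 RPM, and 2MUT libraries at 266, 278 and 250 RPM. The second Control library was 4.31-fold below the other two on log2(RPM + 1), and in that library 7 of 7857 genes of at least 10 RPM lay more than 2-fold below the other two and 74 lay more than 2-fold above. The 2MUT libraries were all higher than Control, with a log2 fold change of 1.22 (95% interval 0.27 to 2.16, limma, BH-adjusted p = 0.0478). This call was lost in 11 of 16 alternative settings, among them edgeR (adjusted p = 0.0842), DESeq2 (0.260) and the removal of any 1 of the 2MUT libraries (0.0934 to 0.113). Without the second Control library the log2 fold change was 0.52, with an adjusted p of 0.00755. In the 2-HG experiment Slc1a4 was at 114, 113 and 128 RPM in 2-HG(-) and 141, 135 and 140 RPM in 2-HG(+). The groups did not overlap, and the difference did not pass the test (log2 fold change 0.23, 95% interval 0.02 to 0.44, limma, BH-adjusted p = 0.0868). The changes were not shown to differ between the experiments (contrast 0.99, 95% interval -0.20 to 2.18, limma, BH-adjusted p = 0.174).

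Slc1a5 (ASCT2), the exchanger known for glutamine uptake, lies on chromosome 7 from 16781340 to 16798274 on the plus strand. It was read at 7.99, 10.5 and 7.52 RPM in Control and 6.03, 3.81 and 4.27 RPM in 2MUT, from 183 and 96 reads in all. The groups did not overlap and Slc1a5 fell by 0.77 on the log2 scale (SE 0.22, limma, BH-adjusted p = 0.0188). The call was lost without the second Control library (0.0709), the second 2MUT library (0.0730) or the third 2MUT library (0.0618). With 2-HG the direction was the reverse, from 19.1, 18.5 and 15.3 RPM to 24.3, 25.7 and 29.4 RPM. Slc1a5 rose 1.48-fold (log2 fold change 0.56 ± 0.13 SE, limma, BH-adjusted p = 0.0103), with an adjusted p of 0.0502 without the third 2-HG(-) library. The contrast between the experiments was -1.33 (limma, BH-adjusted p = 0.00078).

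The log2 ratio of Slc1a5 to Slc1a4 was -4.50, -1.90 and -4.31 in Control and -5.25, -5.86 and -5.57 in 2MUT. It was lower by 1.99 on average in 2MUT, with a difference of -1.99 that became -1.16 without the second Control library. In 2-HG(-) it was -2.52, -2.55 and -2.98 and in 2-HG(+) -2.50, -2.35 and -2.22, a difference of 0.33 that became 0.19 without the third 2-HG(-) library.

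Slc38a1 (SNAT1) lies on chromosome 15 from 96571418 to 96642913 on the minus strand, and its neighbours of the same family, Slc38a2 and Slc38a4, follow at 96687392 to 96699730 and 96994820 to 97055956 on the same strand. Levels of Slc38a1 were 141, 171 and 167 RPM in Control and 227, 245 and 250 RPM in 2MUT. All 2MUT libraries were above Control, and Slc38a1 rose 1.51-fold (log2 fold change 0.60 ± 0.10 SE, limma, BH-adjusted p = 0.00126). With 2-HG the levels went from 95.7, 68.1 and 88.0 RPM to 111, 156 and 174 RPM. The lowest 2-HG(+) library stood just above the highest 2-HG(-) library, and the rise was 1.73-fold (log2 fold change 0.79 ± 0.18 SE, limma, BH-adjusted p = 0.00808). The contrast between the experiments was -0.20 with a 95% interval of -0.68 to 0.29 (limma, BH-adjusted p = 0.519).

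Slc38a2 (SNAT2), known for its induction when amino acids are scarce, moved in opposite directions. Control libraries were at 38.5, 43.3 and 35.4 RPM and 2MUT libraries at 102, 80.2 and 93.0 RPM. Every 2MUT library was far above Control, a 2.31-fold rise (log2 fold change 1.21 ± 0.13 SE, limma, BH-adjusted p = 5.87e-05). The 2-HG(-) libraries were at 750, 712 and 770 RPM and the 2-HG(+) libraries at 477, 536 and 564 RPM. Here Slc38a2 fell, also without overlap (log2 fold change -0.50 ± 0.10 SE, limma, BH-adjusted p = 0.00403). The contrast was 1.71 (limma, BH-adjusted p = 1.9e-06), and both calls held in each of the alternative settings tried.

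The starting level of Slc38a2 was unlike in the 2 experiments. Rescaled to the names listed in both tables, it was 40.0 RPM in Control and 753 RPM in 2-HG(-), 18.8-fold higher, a gap larger than that of 98.2% of 9628 genes. For the other tested members the 2-HG(-) level lay between 0.363 and 2.00 times that of Control. Slc7a11, which is not a member, was 17.1-fold higher in 2-HG(-), a gap larger than that of 96.1% of the genes. The vector, the solvent, the entries listed and the library set differ between Control and 2-HG(-), and the culture may differ. These cannot be told apart.

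The balance of the Slc38 pair also moved in opposite directions. The log2 ratio of Slc38a2 to Slc38a1 was -1.84, -1.95 and -2.21 in Control and -1.14, -1.60 and -1.41 in 2MUT, higher by 0.62. It was 2.96, 3.37 and 3.11 in 2-HG(-) and 2.09, 1.77 and 1.69 in 2-HG(+), a difference of -1.29. Slc38a4 (SNAT4) was at 0 reads in Control, 2MUT and 2-HG(+), and 1 read was counted in 2-HG(-). A count of 0 allows a level of up to the 3-read values given for Slc7a3.

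The other plasma membrane carriers, 28 further genes of these and other carrier families, were examined beside the members. This list and those that follow were written with earlier results of these data known, so their counts are descriptions and not tests. In 2MUT, 7 of the 10 tested rose and 1, Slc43a1, fell, against 16.5% and 17.3% of all genes tested, with a median log2 fold change of 0.62 against 0.01 over all genes. In 2-HG(+), 4 of 10 fell, against 16.7% of all genes, and the other 6 did not pass the test, with a median of -0.21 against -0.02. Of 9 genes tested in both experiments, 7 changed more positively in 2MUT, against 19.9% of all genes, and the other 2 did not pass the test. The fall of Slc43a1 (-0.96, limma, BH-adjusted p = 0.0359), named after its values were seen, was from 4.03 to 1.65 RPM and was lost in most leave-one-out fits.

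Slc1a3 (GLAST), a sodium-dependent glutamate and aspartate carrier, was at 729, 651 and 642 RPM in Control and 1858, 1525 and 1703 RPM in 2MUT. It was at 389, 417 and 444 RPM in 2-HG(-) and 121, 106 and 110 RPM in 2-HG(+). The groups were far apart in both experiments and in opposite order, with log2 fold changes of 1.33 and -1.88 (limma, BH-adjusted p = 4.01e-06 and 2e-06). Slc1a2 (GLT-1), also a glutamate carrier, rose in 2MUT from 9.44 to 23.0 RPM (log2 fold change 1.20, limma, BH-adjusted p = 0.000147). It fell with 2-HG from 3.30 to 0.532 RPM (-1.48, limma, BH-adjusted p = 0.000336). Slc43a2 (LAT4), a facilitative carrier of large neutral amino acids, rose in 2MUT from 2.32 to 7.82 RPM (log2 fold change 1.41, limma, BH-adjusted p = 0.000282), and was at 7.51 and 6.49 RPM without and with 2-HG.

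Slc7a2 (CAT2), like Slc7a1 a cationic amino acid carrier, fell with 2-HG from 26.2 to 11.4 RPM (log2 fold change -1.14, limma, BH-adjusted p = 0.000161). This was opposite to the rise of Slc7a1 in the same libraries. Slc7a6 (y+LAT2), which also pairs with Slc3a2, fell with 2-HG from 253 to 197 RPM (-0.36, limma, BH-adjusted p = 0.0141). That fall was lost when the third 2-HG(-), the second 2-HG(+) or the third 2-HG(+) library was left out (0.0515 to 0.0679). In 2MUT, Slc7a6 rose from 387 to 562 RPM (0.54, limma, BH-adjusted p = 0.00191).

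**Figure D4:**
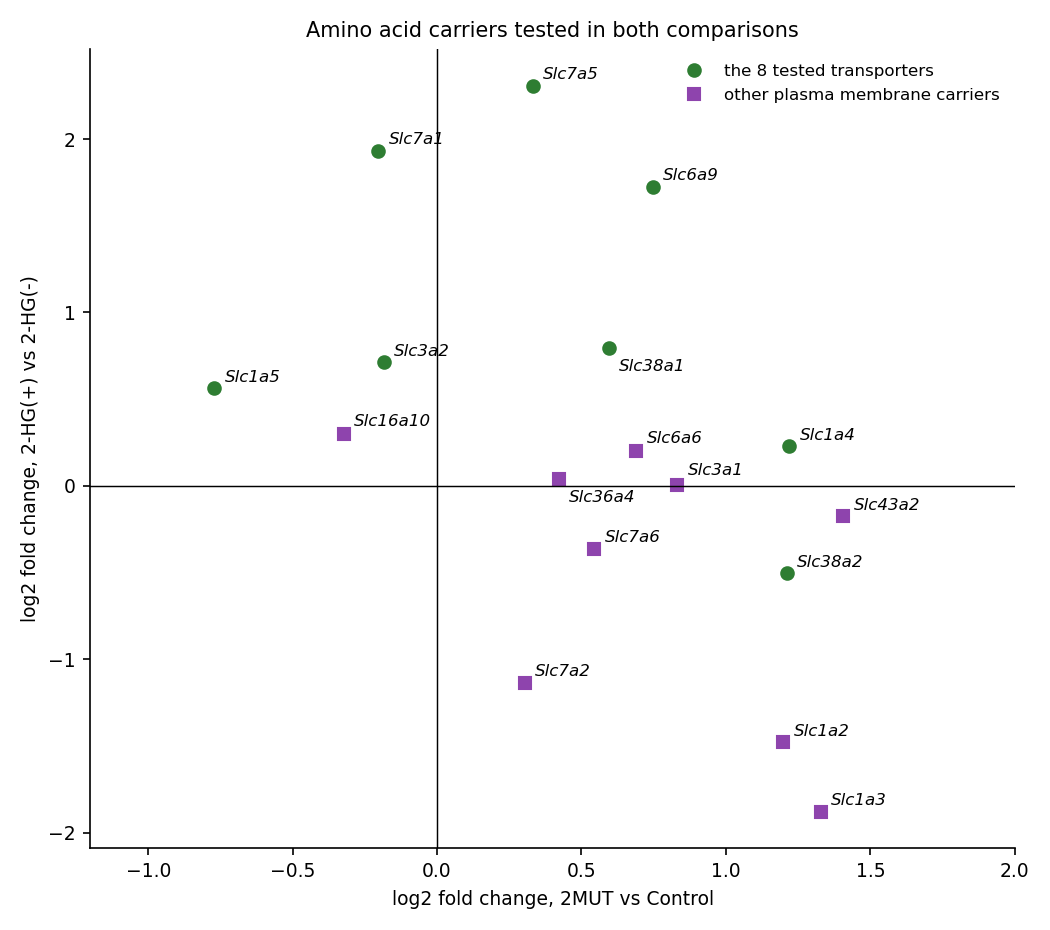
Log2 fold change in 2MUT vs Control (horizontal axis) and in 2-HG(+) vs 2-HG(-) (vertical axis) of the 8 tested transporters (green circles) and the 9 other plasma membrane carriers tested in both experiments (purple squares). Slc7a5, Slc7a1 and Slc6a9 lie highest, at 2.31, 1.93 and 1.73 with 2-HG, and Slc1a3 and Slc1a2 lie lowest, at -1.88 and -1.48.

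Among the lysosomal amino acid carriers, 4 of 7 tested rose in 2MUT, against 16.5% of all genes, and the other 3 did not pass, with a median log2 fold change of 0.33. Without the first 2MUT library 1 rose, beside 12.3% of all genes, and in the unmoderated test 2 rose, beside 9.23%. The largest changes in the main fit are given next. The largest were in Slc36a1 (PAT1, 0.86), Slc38a7 (SNAT7, which exports glutamine, 0.68) and Pqlc2 (which exports cationic amino acids, 0.65), with limma BH-adjusted p-values of 0.0127, 0.00214 and 0.0188. The Slc36a1 call was lost without the first Control or first 2MUT library, and the Pqlc2 call without the first or the third 2MUT library. In 2-HG(+), 1 of 8 fell, Mfsd12 (-0.55, limma, BH-adjusted p = 0.0497), at 5.28 and 3.34 RPM, and it passed only with the second 2-HG(-) or the third 2-HG(+) library left out among the leave-one-out fits. The median of the 8 was -0.26, and 1 of 8 is near the 16.7% of all genes that fell.

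Of the genes through which amino acids are sensed by mTORC1, 8 of 26 tested rose and 4 fell in 2MUT, against 16.5% and 17.3% of all genes. With 2-HG, 2 of 26 rose and 3 fell, against 16.1% and 16.7%. The falls in 2MUT and both counts with 2-HG were near or below the shares over all genes, as were the rises in 2MUT in an unmoderated per-gene test, 2 of 26 against 9.23% of all genes. The medians were 0.08 and -0.12, close to the 0.01 and -0.02 of all genes tested. Sesn2, the leucine sensor Sestrin2 and itself a target of the amino acid response, rose from 17.9 to 41.1 RPM in 2MUT (1.20, limma, BH-adjusted p = 0.00158) and from 8.46 to 16.6 RPM with 2-HG (0.91, limma, BH-adjusted p = 0.00446). Its relatives did not follow it with 2-HG. Sesn3 rose by 0.66 in 2MUT and fell by 0.77 with 2-HG (limma, BH-adjusted p = 0.0195 and 0.00607). Sesn1 likewise rose by 0.43 in 2MUT and fell by 0.94 with 2-HG (limma, BH-adjusted p = 0.0401 and 0.000925). Flcn, the folliculin subunit that acts on the Rag GTPases, fell in both, by 0.63 and 0.70 (limma, BH-adjusted p = 0.000769 and 0.00171).

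Nprl2 (GATOR1) and Fnip1, a partner of Flcn, fell in 2MUT, by 0.48 and 0.39, with limma BH-adjusted p-values of 0.0154 and 0.0197. Seh1l (GATOR2) rose by 0.44 with 2-HG (limma, BH-adjusted p = 0.0201). Each of these calls was lost when a single library was left out, the second of 2MUT for Nprl2, the first of Control or either of the first 2 of 2MUT for Fnip1, and the first or the third of 2-HG(-) for Seh1l. The Sesn3 call in 2MUT was likewise lost without the first Control, first 2MUT or second 2MUT library. In the unmoderated test Sesn2 lost its calls in 2MUT and with 2-HG (adjusted p = 0.0639 and 0.0580), as did Sesn3 (0.123 and 0.0584).

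The regulators and targets of the amino acid response were counted in the same way, from a list written with earlier results of these data known. With 2-HG, 14 of 20 rose and 1 fell, against 16.1% and 16.7% of all genes, with a median log2 fold change of 1.12. In 2MUT, 6 of 20 rose and 1 fell, against 16.5% and 17.3%, with a median of 0.25, and in the unmoderated test 2 of 20 rose, near the 9.23% of all genes. Of the 20, 12 changed more positively with 2-HG and 2 more positively in 2MUT, against 19.5% and 19.9% of all genes. Asns (asparagine synthetase), a standard target of Atf4, was at 58.6, 47.9 and 53.3 RPM in 2-HG(-) and 244, 301 and 311 RPM in 2-HG(+), a log2 fold change of 2.40 (limma, BH-adjusted p = 1.9e-06). In Control it was at 35.4, 17.9 and 46.4 RPM and in 2MUT at 37.7, 40.3 and 37.3 RPM, with overlapping groups and an adjusted p of 0.402.

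Trib3, a pseudokinase induced by the same response, rose with 2-HG from 1.53 to 16.4 RPM (2.80, limma, BH-adjusted p = 1.28e-05). Atf3, a stress-induced transcription factor, rose in both, by 1.40 in 2MUT and 2.36 with 2-HG (limma, BH-adjusted p = 0.000162 and 4.1e-06). Stc2, a secreted stress-induced glycoprotein, also rose in both, by 1.71 in 2MUT and 1.14 with 2-HG (limma, BH-adjusted p = 0.00102 and 0.00244). Its level with 2-HG went from 1.84 to 5.24 RPM. The Stc2 call in 2MUT was lost in the unmoderated test (adjusted p = 0.0599). Ddit3 (CHOP) was at 182, 96.4 and 147 RPM in Control, 56.2, 51.1 and 62.7 RPM in 2MUT, 39.4, 56.4 and 36.9 RPM in 2-HG(-) and 176, 168 and 183 RPM in 2-HG(+). It fell by 1.26 in 2MUT (limma, BH-adjusted p = 0.000549) and had a log2 fold change of 1.99 with 2-HG (1.65e-05), with no overlap of libraries in either. Eif2ak2 (PKR), an interferon-induced kinase, fell by 0.75 with 2-HG (limma, BH-adjusted p = 0.000717).

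The genes whose levels most resembled the mean of the 8 tested members, centred and scaled within each table, were Pcolce2, G3bp1, Mdn1, Abcc4 and Clptm1l. Their Pearson r over the 12 libraries was 0.92 to 0.94, the highest of 6721 genes, and it is a description, since the libraries of a group share their condition. Mouse Idh2, which is no measure of the human transgene, fell from a mean of 77.3 RPM in Control to 49.6 RPM in 2MUT (log2 fold change -0.63, limma, BH-adjusted p = 0.00298) and rose from 177 to 238 RPM with 2-HG (0.43, limma, BH-adjusted p = 0.0109).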

How the data were processed

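RNA was sequenced with an Ion AmpliSeq mouse transcriptome kit on the Ion Proton. Reads were aligned by the authors with TMAP against the AmpliSeq mouse transcripts, and the AmpliSeqRNA plug-in gave the deposited RPM values. For their own lists the authors used GeneSpring and Benjamini-Hochberg adjustment. In the tables, 100% of values were whole multiples of 1 read within 0.02 reads, which gave each library's depth, and 97.5% to 98.8% of reads lay on the 20443 names that both tables list. Replicates differed by more than sampling noise (chi-square per degree of freedom 5.88 to 33.1).

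Each comparison was tested within its table with limma 3.58.1 (R 4.3.3). The values tested were log2(RPM + 1), a mean-variance trend was used, and genes averaging under 1 RPM over the 6 libraries were left out. Benjamini-Hochberg adjustment ran over all genes tested with a threshold of 0.05, and no fold change was required. Experiments were compared by a limma contrast of the changes over the 12 libraries. Pair ratios were tested with an exact permutation test. edgeR 4.0.16 and DESeq2 1.42.0 on the recovered reads, other scalings, filters and added values, and leaving out each library were alternatives. Beside the members and Slc7a11, genes named were the up to 3 largest rises and falls of each list and comparison past the threshold with at least 5 RPM in the higher group, the 5 most similar genes of at least 10 RPM, and Idh2. A gene that this rule names is left out here. The members and lists were chosen with earlier results of these data known.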

Additional observations from a re-analysis of the deposited data

Results flagged for a closer look

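Some changes differed between the 2 experiments in the limma contrast over the 12 libraries, 2MUT minus 2-HG on the log2 scale, each with a Benjamini-Hochberg adjusted p-value under 0.05. Among the members the differences were -0.90 for Slc3a2, -2.14 for Slc7a1, -1.98 for Slc7a5, -1.33 for Slc1a5, -0.98 for Slc6a9 and 1.71 for Slc38a2, and Slc7a11 had -2.49. Of the other plasma membrane carriers, Slc1a3 differed by 3.21, Slc1a2 by 2.68, Slc43a2 by 1.58, Slc7a2 by 1.44 and Slc7a6 by 0.91. In the lysosome and the sensing of amino acids, Slc36a1 differed by 1.33, Sesn3 by 1.43 and Sesn1 by 1.37. Of the amino acid response genes, Ddit3 differed by -3.25, Trib3 by -2.28, Asns by -2.09, Atf3 by -0.95 and Eif2ak2 by 0.91. The groups had 3 libraries, so single libraries were not tested as outliers.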

How the results depend on the processing

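The number of members that rose in 2MUT was 5, and it was 3 without the mean-variance trend and between 3 and 5 with each library left out. The Slc1a4 call was also lost with 0.1 added, with no filter, with a filter at 10 RPM and with median-of-ratios scaling. It was lost too in the unmoderated test, with edgeR and with DESeq2, and each of these losses lowered the count. The 1 member that fell in 2MUT, Slc1a5, was lost (0 called) with no filter and in the unmoderated test, was not tested under a filter at 10 RPM (0 called), and 0 or 1 was called with each library left out. With 2-HG the counts of members, 6 and 1, stayed within 5 to 6 and at 1 in the settings tried. The members whose change was more positive in 2MUT numbered 1, or between 1 and 2 with a library left out, the added gene being Slc1a4. The log2 fold change of Slc7a1 in 2MUT ranged from -0.62 to 0.17 with each library left out, and no other member changed sign. Calls of Slc1a4, Slc1a5 and Slc7a5 in 2MUT were lost in 11 of 16, 5 of 15 and 2 of 16 settings, and those of Slc1a5 and Slc38a1 with 2-HG in 1 of 16 each. The cause was not tested.

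For the other plasma membrane carriers, the 1 fall in 2MUT became 0 with no filter, with a filter at 10 RPM and in the unmoderated test, and was 0 to 1 with a library left out, and 1 gene rose with 2-HG when no filter was used. The lysosomal rises in 2MUT went from 4 to 2 in the unmoderated test and 1 to 4 with a library left out. The lysosomal fall with 2-HG became 0 with 0.1 added, with a filter at 10 RPM and in the unmoderated test, and 2 with DESeq2, and it was 0 to 3 with a library left out, where 0 to 1 rose. The sensing genes that rose in 2MUT went from 8 to 2 in the unmoderated test and 4 to 8 with a library left out, those that fell from 4 to between 1 and 4. With 2-HG, 1 sensing gene rose in the unmoderated test, where Sesn2 and Seh1l both lost their calls. With a library left out 1 to 2 sensing genes rose with 2-HG, and 5 fell under quantile normalization. Of the amino acid response genes, 2 rose and 0 fell in 2MUT in the unmoderated test, 1 to 2 fell with a library left out, and with 2-HG 2 fell with DESeq2 and 1 to 2 with a library left out. Over all genes, the rises in 2MUT went from 16.5% to 9.23% in the unmoderated test and 11.5% to 17.3% with a library left out, and the falls from 17.3% to 11.1% in the unmoderated test.

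Replicate numbers did not pair the libraries, since same-numbered libraries correlated with r of 0.07, 0.03 and 0.03 in 2MUT and Control and -0.46, -0.16 and 0.06 in the 2-HG experiment, and not every library correlated best with its own number. With the number as a replicate block, 5 members rose and 1 fell in 2MUT, 6 rose and 1 fell with 2-HG, and Mfsd12, Seh1l and Slc7a6 lost their calls with 2-HG, leaving 0 lysosomal falls and 1 sensing rise. Over all genes the block gave 1911 rises and 1987 falls in 2MUT, from 1826 and 1915, and 1217 rises and 1286 falls with 2-HG, from 1668 and 1737. Ratios of Slc7a3 to Slc7a1 and Slc38a4 to Slc38a2 were planned and not run, as Slc7a3 and Slc38a4 were at or near 0 reads. Depth limits what can be said of these 2 genes and of Slc1a5 in 2MUT, read from 96 reads.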
